A study of Mus musculus with 16 samples.

Results

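The metallothioneins and zinc transporters described here are 8 genes of the mouse zinc handling system: Mt1 and Mt2, Mtf1, the exporters Slc30a1 and Slc30a10, and the importers Slc39a4, Slc39a8 and Slc39a14. They were taken by symbol from the 55450 genes of the count table, each symbol matched 1 gene, and all 8 were among the 11675 genes that averaged 1 CPM or more and were tested, where CPM is the count scaled to library size. The study sequenced captured mRNA from primary hepatocytes of wild-type mice, cultured overnight in medium with serum and an insulin, transferrin and selenium supplement. The 4 groups were untreated cells, cells given 10 mM sodium itaconate, cells given a defined mixture of fatty acids and cholesterol diluted 1:10 (called lipid), and cells given both, called lipid + itaconate. Each group held 4 libraries with the replicate letters A to D, 16 libraries in all. The animals were male and aged 8 to 12 weeks. The sources used here do not state whether a letter marks an animal or a separate culture, so the p-values measure only the spread between these libraries.

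Metallothioneins are small cytosolic proteins rich in cysteine that bind zinc and copper, and in the liver they form the main buffer for free zinc. Cellular zinc is sensed by MTF-1, the transcription factor encoded by Mtf1, which binds short metal response elements and turns on Mt1, Mt2 and Slc30a1 when zinc rises. SLC30 proteins move zinc or manganese out of the cytosol and SLC39 proteins move metals into it, so the balance of both families sets the metal content of a cell. The comparisons asked whether itaconate, a metabolite that macrophages make, or a lipid load altered the transcripts of this system.

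The libraries held 22346049 to 35512004 counts, and all 16 carried hepatocyte transcripts at high levels. The 7 hepatocyte markers found of 8 sought, with Alb (albumin) the most abundant, summed to between 30595 and 54380 CPM. Macrophage and Kupffer cell markers summed to 146 to 317 CPM, nearly all of it Cd68, while the Kupffer cell genes Clec4f and Timd4 lay at or below 3.54 and 0.736 CPM. Endothelial markers summed to 10.3 to 20.3 CPM, stellate cell markers to at most 0.826 CPM and neutrophil markers to at most 0.15 CPM. Of the cholangiocyte markers only Sox9 passed 1 CPM, and Cftr was at 0 in every library. The share of mitochondrial transcripts ran from 3.27% to 4.97% in 15 libraries and was 6.01% in lipid + itaconate replicate C. With letter means removed, the distance of each library from the mean of the rest of its group was taken over all tested genes. It was largest for lipid + itaconate replicate C, at 0.248 (root mean square log2), and nearly as large for replicate B of that group, at 0.242. Lipid replicate C stood at 0.239, and all 16 libraries lay between 0.191 and 0.248, so this distance set no library clearly apart. In bulk RNA, fewer cells of a type and less RNA per cell cannot be told apart.

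Mt1 and Mt2 were by far the most abundant members. Both lie on the forward strand of mouse chromosome 8 in GENCODE on GRCm38, Mt2 at chr8:94172664-94173568 and Mt1 at chr8:94179082-94180327. The coding sequences are printed from the reference to show what these transcripts encode and how far the pair differ, since reads from near-identical copies could be misassigned. Capitals mark the TGC and TGT codons, which encode cysteine.
Mt1 coding sequence: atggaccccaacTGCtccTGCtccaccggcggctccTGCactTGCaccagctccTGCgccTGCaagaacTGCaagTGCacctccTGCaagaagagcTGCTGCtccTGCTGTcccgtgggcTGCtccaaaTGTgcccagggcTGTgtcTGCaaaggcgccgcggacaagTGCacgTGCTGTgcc
Mt2 coding sequence: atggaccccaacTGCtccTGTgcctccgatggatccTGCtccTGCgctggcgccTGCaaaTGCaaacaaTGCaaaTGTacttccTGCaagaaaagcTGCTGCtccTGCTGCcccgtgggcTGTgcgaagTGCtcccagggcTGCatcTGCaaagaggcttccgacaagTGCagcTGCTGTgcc

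Each coding sequence had 183 bases in 61 codons, of which 20 encoded cysteine at 20 shared positions. The pair were identical at 145 bases, or 79.2%, and their longest identical stretch was 20 bases. Every deposited value of the 8 genes was a whole number in all 16 libraries, within 1e-06.

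Promoter sequence is shown for Mt1, Mt2 and Slc30a1, the members for which control by MTF-1 is textbook knowledge. The 250 bases before each RefSeq start (GRCm38.p6, forward strand) were searched on both strands for the core of the metal response element, spelled TGCACNC or TGCGCNC, and matches are in capitals.
Mt1 promoter, chr8:94178839-94179088: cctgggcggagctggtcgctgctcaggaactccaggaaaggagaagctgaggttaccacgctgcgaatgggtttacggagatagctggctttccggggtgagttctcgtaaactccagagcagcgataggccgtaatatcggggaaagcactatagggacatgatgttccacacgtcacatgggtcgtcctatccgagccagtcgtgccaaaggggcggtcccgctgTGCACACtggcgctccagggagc
Mt2 promoter, chr8:94172368-94172617: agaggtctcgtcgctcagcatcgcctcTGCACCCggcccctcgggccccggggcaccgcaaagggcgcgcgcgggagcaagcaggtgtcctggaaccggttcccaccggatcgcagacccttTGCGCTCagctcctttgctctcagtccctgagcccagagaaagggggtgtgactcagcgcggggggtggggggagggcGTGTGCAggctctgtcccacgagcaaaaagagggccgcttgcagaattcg
Slc30a1 promoter, chr1:191906531-191906780: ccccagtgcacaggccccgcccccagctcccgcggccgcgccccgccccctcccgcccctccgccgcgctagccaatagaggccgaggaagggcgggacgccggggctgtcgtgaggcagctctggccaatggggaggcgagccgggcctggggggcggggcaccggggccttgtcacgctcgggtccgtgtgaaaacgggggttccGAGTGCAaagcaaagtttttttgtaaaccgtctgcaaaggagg

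The window of Mt1 held 1 match, that of Mt2 held 3, and that of Slc30a1 held 1. Windows were found for 6 of the 8 members. The window of Slc30a10 held 3 matches, that of Mtf1 none, and the pair of windows listed for Slc39a8 none and 1. Of 32851 mouse promoter windows of the same length, 21.4% held a match and 1.26% held 3 or more, so a single match is common. GENCODE places other starts 122 and 152 bases downstream for Mt1, 46 and 242 bases downstream for Mt2 and 475 bases downstream for Slc30a1. Its first starts for Mt1 and Slc30a1 lie a few bases inside the windows. The bases between the RefSeq starts and the later starts were not searched, and which start these cells used was not tested. The counts thus cover the printed stretches only and can miss elements close to a later start, as for Mt1. A match describes letters only and is no evidence of binding.

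Mt1 transcripts in replicates A, B, C and D stood at 2125, 2135, 2552 and 1981 CPM in untreated cells and at 2097, 2302, 2572 and 2203 CPM with itaconate. With lipid they were 1858, 2018, 2598 and 2213 CPM, and with lipid + itaconate 2221, 2455, 1642 and 2207 CPM. The ranges of all 4 groups overlapped, and the lowest value was that of lipid + itaconate replicate C, the library with the highest mitochondrial share.

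Mt2 followed the same pattern. Its levels were 1865, 1687, 1955 and 1658 CPM in untreated cells and 1841, 1947, 2056 and 1883 CPM with itaconate. They were 1513, 1538, 2078 and 1793 CPM with lipid and 1718, 2028, 1271 and 1664 CPM with lipid + itaconate. The groups again overlapped, and replicate C was the highest with lipid and the lowest with lipid + itaconate.

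**Figure D1:**
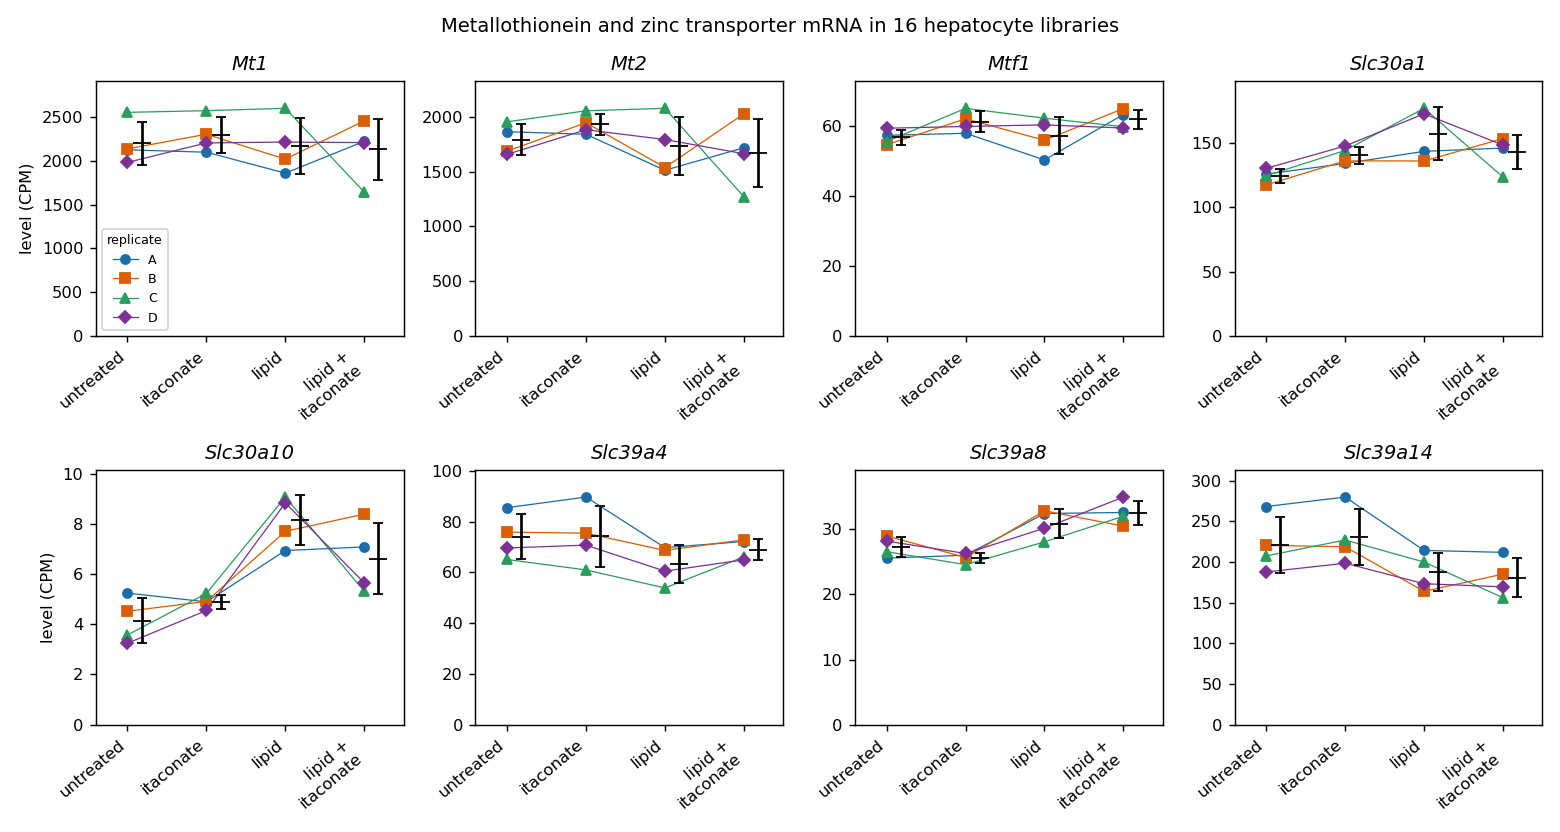
Level of each of the 8 genes in CPM (vertical axes, from 0) in the 4 treatment groups, with 1 marker per library, thin lines joining libraries of the same replicate letter, and black bars for the mean ± SD of 4 libraries. Slc30a10 rises from between 3.24 and 5.24 CPM in untreated cells to between 6.93 and 9.06 CPM with lipid, while the 4 groups of Mt1 and of Mt2 overlap.

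Among all genes in the table Mt1 ranked 49 and Mt2 ranked 61 by mean CPM. Together they took 0.393% ± 0.0379 of all counts in untreated cells and 0.410% ± 0.0328 with itaconate (SD, n = 4). The share was 0.406% ± 0.0628 with lipid and 0.381% ± 0.0529 with lipid + itaconate, and single libraries ran from 0.305% to 0.490%. The Mt1 count divided by the Mt2 count stayed between 1.14 and 1.33 in the 16 libraries. Per kilobase, the order of the pair depended on the length used: over all annotated exons Mt1 stood at 1765 and Mt2 at 3029 CPM per kilobase, whereas over the first-listed transcript of each gene they stood at 4005 and 3485. The exons of all annotated isoforms of Mt1 together cover 1246 bases, against 549 bases in its first-listed transcript.

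**Figure D2:**
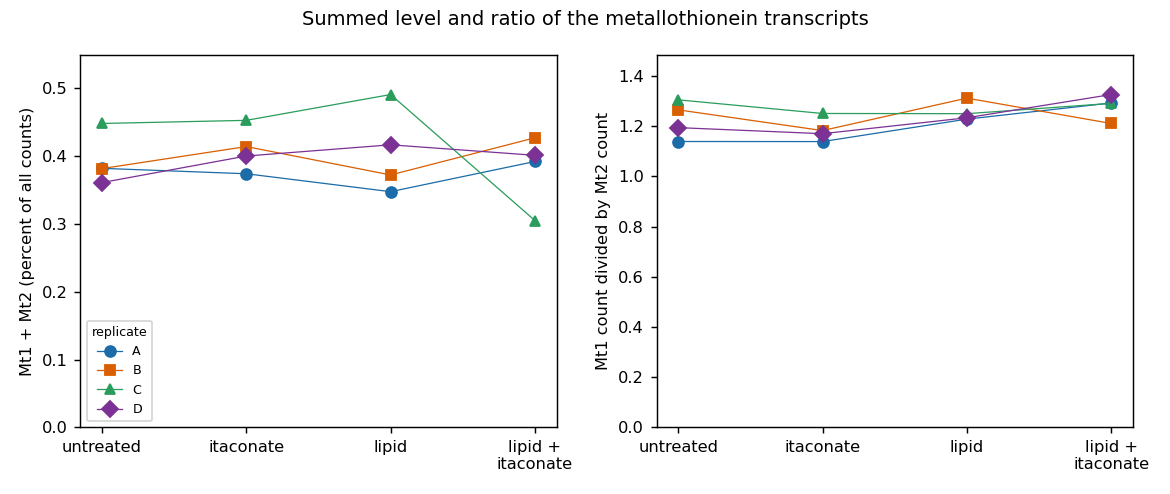
Left, Mt1 and Mt2 counts together as a percent of all counts in each of the 16 libraries. Right, the Mt1 count divided by the Mt2 count, with markers and lines for the replicate letters. The share lies between 0.305% and 0.490% and the ratio between 1.14 and 1.33.

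No metallothionein change passed the test in any comparison. Testing used the quasi-likelihood model of edgeR over all 11675 genes with treatment and replicate letter as terms, Benjamini-Hochberg adjustment and a threshold of 0.05. Itaconate against untreated gave a log2 fold change of 0.06 ± 0.11 (SE, n = 4) for Mt1, with a 95% interval of -0.18 to 0.31 and an adjusted p of 0.797. For Mt2 the same change was 0.11 ± 0.12, with an interval of -0.15 to 0.36 and an adjusted p of 0.635. In lipid-treated cells itaconate gave -0.02 ± 0.12 for Mt1 (interval -0.26 to 0.23, adjusted p 0.965) and -0.05 ± 0.12 for Mt2 (interval -0.30 to 0.21, adjusted p 0.880). The intervals reach 0.36 above and 0.30 below 0 on the log2 scale, so equality of the groups was not shown.

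Lipid against untreated gave log2 fold changes of -0.02 ± 0.11 for Mt1 (interval -0.26 to 0.22, adjusted p 0.904) and -0.05 ± 0.12 for Mt2 (interval -0.31 to 0.20, adjusted p 0.747). With itaconate present, lipid gave -0.10 ± 0.12 for Mt1 (adjusted p 0.518) and -0.21 ± 0.12 for Mt2 (adjusted p 0.169). That last value rested on lipid + itaconate replicates B and C, since the log2 change of Mt2 was -0.34 with an adjusted p of 0.0212 without replicate B and -0.04 with an adjusted p of 0.670 without replicate C. The other metallothionein genes of the mouse were barely counted: Mt3, known from brain, had 0 to 2 counts and Mt4, known from stratified epithelia, 0 to 11 counts per library, and neither was tested.

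Mtf1, which encodes the zinc sensor, was a gene of middling level at chr4:124802104-124849800. It stood at 57.4, 54.8, 55.7 and 59.5 CPM in untreated replicates A to D and at 58.0, 62.2, 65.2 and 60.0 CPM with itaconate. With lipid the values were 50.4, 56.0, 62.4 and 60.5 CPM, and with lipid + itaconate 63.4, 65.1, 59.9 and 59.6 CPM. All 4 letters were higher with itaconate than without it in the absence of lipid, yet the groups overlapped. The log2 fold change was 0.11 ± 0.06 for itaconate against untreated (adjusted p 0.303) and 0.12 ± 0.06 for lipid + itaconate against lipid (adjusted p 0.327; 0.06 and 0.693 without lipid replicate A), and both lipid comparisons were at 0.02 or less in size.

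Slc30a1 encodes ZnT1, the exporter that carries zinc across the plasma membrane, and it was higher with lipid. The gene lies at chr1:191906767-191913247. Its levels were 126, 117, 124 and 130 CPM in untreated replicates A to D and 143, 136, 177 and 173 CPM with lipid. The 2 groups did not overlap, and the log2 fold change was 0.33 ± 0.07 (SE, interval 0.17 to 0.49), a rise of 26.1% with an edgeR adjusted p of 0.00186 and all 4 letters higher.

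Itaconate alone took Slc30a1 to 134, 136, 144 and 148 CPM, again above every untreated library. The change of 0.17 ± 0.07 (interval 0.01 to 0.33) had an unadjusted p of 0.0339 and an adjusted p of 0.195, which misses the threshold. The same change reached an adjusted p of 0.00463 when the other 8 libraries were left out of the fit and 0.0187 with no filter on low counts, and over all 15 alternatives the adjusted p ran from 0.00463 to 0.417. With lipid + itaconate the levels were 146, 153, 123 and 148 CPM, so replicate C lay inside the untreated range and the others above it. Adding lipid to itaconate gave 0.03 ± 0.07 (adjusted p 0.799) and lipid + itaconate against lipid gave -0.13 ± 0.07 (adjusted p 0.372). With 1 library left out the latter ran from -0.21 (adjusted p 0.170, without lipid + itaconate B) to -0.04 (adjusted p 0.724, without lipid C). The interaction, which is the lipid change with itaconate minus the lipid change without it, was -0.31 ± 0.11, with an unadjusted p of 0.0103 and an adjusted p of 0.424. A difference between the lipid changes with and without itaconate was thus not shown at the threshold, and it was called only with no filter, at an adjusted p of 0.00533. In order, the group means were 157 CPM with lipid, 143 with lipid + itaconate, 140 with itaconate and 124 in untreated cells, and no neighbouring pair in this order differed past the threshold.

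Slc30a10, an exporter best known for moving manganese out of liver cells into bile, showed the largest change of the 8 genes with lipid. It lies at chr1:185454848-185468762 and was the least abundant member, with 91 to 262 counts per library. Untreated replicates A to D stood at 5.24, 4.52, 3.57 and 3.24 CPM and lipid replicates at 6.93, 7.70, 9.06 and 8.83 CPM. The groups were fully apart and the level doubled, with a log2 fold change of 1.00 ± 0.16 (interval 0.66 to 1.33) and an adjusted p of 0.000104.

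With itaconate Slc30a10 stood at 4.89, 4.91, 5.22 and 4.55 CPM, and with lipid + itaconate at 7.08, 8.38, 5.31 and 5.65 CPM. These groups also did not overlap, although replicate C of lipid + itaconate exceeded the highest itaconate library only narrowly. The log2 change was 0.42 ± 0.15 with an adjusted p of 0.0344. That call was lost when any of 5 libraries was left out, namely itaconate A, B or D or lipid + itaconate A or B, with adjusted p-values between 0.0683 and 0.140. Lipid + itaconate against lipid gave -0.32 ± 0.15 (unadjusted p 0.0491, adjusted p 0.286), and itaconate against untreated gave 0.26 ± 0.16 (adjusted p 0.381). The interaction was -0.58 ± 0.22, with an unadjusted p of 0.0194 and an adjusted p of 0.481, and letters C and D moved by -1.32 and -1.13 while A and B moved by 0.13 and 0.00.

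Slc39a14 encodes ZIP14, a liver importer of zinc, iron and manganese, and it was the most abundant importer of the 3. It was lower with lipid than without it, whether or not itaconate was present. The gene lies on the reverse strand at chr14:70303469-70351425. Untreated replicates A to D stood at 268, 221, 208 and 188 CPM and lipid replicates at 214, 164, 200 and 173 CPM. The groups overlapped because the letters differed in level, with A the highest in every group, yet all 4 letters were lower with lipid. The log2 fold change was -0.23 ± 0.06 (interval -0.36 to -0.09) with an adjusted p of 0.00871, and without the replicate block it was -0.23 with an adjusted p of 0.157.

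With itaconate Slc39a14 stood at 280, 219, 227 and 198 CPM and with lipid + itaconate at 212, 185, 156 and 170 CPM. Each letter was lower with both agents than with itaconate alone, and the log2 change was -0.35 ± 0.06 (interval -0.49 to -0.21) with an adjusted p of 0.000430. Itaconate against untreated gave 0.06 ± 0.06 (adjusted p 0.588) and lipid + itaconate against lipid gave -0.06 ± 0.06 (adjusted p 0.680). The interaction of -0.12 ± 0.09 had an adjusted p of 0.752, so the lipid changes with and without itaconate were not shown to differ.

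Slc39a8, which encodes ZIP8, an importer of zinc and manganese close in sequence to ZIP14, went the other way. It lies at chr3:135825279-135888572. Its levels were 25.6, 29.0, 26.6 and 28.2 CPM in untreated replicates A to D and 32.4, 32.9, 28.1 and 30.2 CPM with lipid. The groups overlapped slightly and all 4 letters were higher, with a log2 fold change of 0.17 ± 0.06 and an adjusted p of 0.0230. Leaving out untreated A or D or lipid A or B took the adjusted p to between 0.0508 and 0.0899.

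The rise of Slc39a8 was clearer in the presence of itaconate. Itaconate replicates stood at 26.0, 25.7, 24.6 and 26.3 CPM and lipid + itaconate replicates at 32.6, 30.5, 32.0 and 35.0 CPM, without overlap. The log2 change was 0.34 ± 0.06 (interval 0.22 to 0.47), a rise of 26.8% with an adjusted p of 0.000221. The interaction of 0.17 ± 0.08 had an unadjusted p of 0.0570 and an adjusted p of 0.594, so a larger rise with itaconate was not shown. Itaconate against untreated gave -0.09 ± 0.06 (adjusted p 0.377) and lipid + itaconate against lipid gave 0.08 ± 0.06 (adjusted p 0.525).

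Slc39a4 encodes ZIP4, the importer best known for zinc uptake in the intestine, and its transcripts were clearly counted in these cultures. It lies on the reverse strand at chr15:76612383-76617384. Levels were 85.5, 75.9, 65.1 and 69.6 CPM in untreated replicates A to D and 69.8, 68.7, 53.9 and 60.5 CPM with lipid. The ranges overlapped while all 4 letters fell, and the log2 change was -0.23 ± 0.05 (interval -0.34 to -0.11) with an adjusted p of 0.00305, against 0.116 without the replicate block.

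With itaconate Slc39a4 stood at 89.7, 75.5, 61.0 and 70.7 CPM and with lipid + itaconate at 72.2, 72.8, 66.1 and 64.9 CPM. The change on adding lipid to itaconate was -0.09 ± 0.05 with an adjusted p of 0.167, and without lipid + itaconate replicate C it was -0.15 with an adjusted p of 0.0243. Lipid + itaconate against lipid gave 0.13 ± 0.05 with an unadjusted p of 0.0271 and an adjusted p of 0.218, and all 4 letters were higher. Itaconate against untreated was at 0.00 ± 0.06, with an adjusted p of 1.00.

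**Figure D3:**
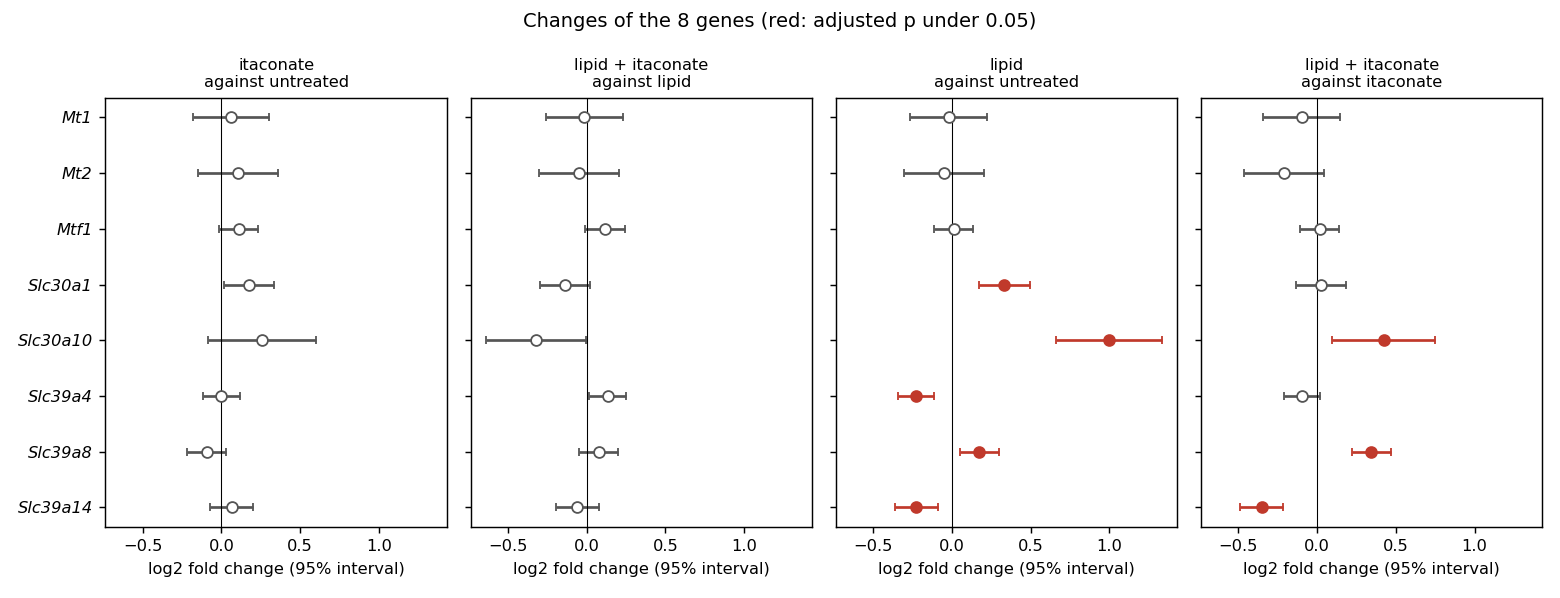
Log2 fold changes of the 8 genes with 95% intervals (horizontal axes, the same in all panels) in the 4 comparisons, filled red where the edgeR adjusted p was under 0.05 and open where it was not. Red points appear only in the lipid comparisons, 5 for lipid against untreated and 3 for lipid + itaconate against itaconate.

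Counted over the 8 genes, itaconate changed none past the threshold. For itaconate against untreated 0 of 8 passed in edgeR, DESeq2 and limma, with 1 at an unadjusted p under 0.05, where 4.91% of all tested genes passed. For lipid + itaconate against lipid 0 of 8 passed by all 3 tools, with 2 at an unadjusted p under 0.05 and 2.58% of all tested genes past the threshold. Unadjusted edgeR p-values under 0.05 were held by 2482 of the 11675 tested genes for itaconate against untreated. For lipid + itaconate against lipid they were held by 2025. At these background shares a count of 0 in 8 genes says little about the genes as a group. The median log2 change was 0.09 and -0.03 in the 2 comparisons, against 0.00 over all genes in both.

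Lipid against untreated changed 5 of 8, with Slc30a1, Slc30a10 and Slc39a8 higher and Slc39a4 and Slc39a14 lower, where 47.5% of all tested genes passed, 23.8% higher and 23.7% lower. Lipid + itaconate against itaconate changed 3 of 8, with Slc30a10 and Slc39a8 higher and Slc39a14 lower, where 47% of all tested genes passed, 23.5% higher and 23.5% lower. Both counts were near those shares, so the 8 genes were not shown to stand apart from the rest of the transcriptome. Their median log2 changes were 0.00 and -0.04, against 0.00 over all genes in both. The interaction was called for 0 of 8, with 2 at an unadjusted p under 0.05, and for 0.00857% of all tested genes. Of the 11675 tested genes 1004 had an unadjusted edgeR p under 0.05 for the interaction. The 4 comparisons share groups, so they are not independent of each other.

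Cell type markers were also called in the same comparisons. Of all tested genes 47.5% passed for lipid against untreated and 47% for lipid + itaconate against itaconate, so a called marker was common. Of the 6 macrophage and Kupffer cell markers over 1 CPM, lipid against untreated raised 1 (Cd68) and lowered 2 (Adgre1 and Marco), and lipid + itaconate against itaconate raised Cd68 and lowered the other 5. Their summed level was 168 to 271 CPM in untreated cells, 146 to 228 with itaconate, 223 to 317 with lipid and 206 to 311 with lipid + itaconate. Of the 7 hepatocyte markers, lipid against untreated lowered 2 (Alb and Ttr), and lipid + itaconate against itaconate lowered 5 and raised Hnf4a. The hepatocyte sums were 38647 to 54039 CPM in untreated cells, 38739 to 54380 with itaconate, 33980 to 45992 with lipid and 30595 to 50360 with lipid + itaconate. Sox9, the 1 cholangiocyte marker tested, and 1 of 4 endothelial markers were lower in both lipid comparisons. Itaconate against untreated lowered Cd68 and raised Lyz2, where 4.91% of all tested genes passed. The part of these markers in the changes of Slc30a1, Slc30a10, Slc39a4, Slc39a8 and Slc39a14 was not tested.

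The remaining zinc transporter genes formed a list of 19, of which 14 passed the filter. The vesicle transporter Slc30a2 was at 0 counts in all libraries, Slc30a8 of pancreatic islets and Slc39a12 had at most 2 counts, and Slc39a2 and Slc39a5 had 2 to 22. Itaconate changed none of the 14 in either comparison by edgeR or limma, with 3 at an unadjusted p under 0.05 in each. DESeq2 called 1 in lipid-treated cells. In edgeR 4.91% of all tested genes passed for itaconate against untreated and 2.58% for lipid + itaconate against lipid. At those shares 0 of 14 says little about the list. Under other edgeR settings the count for itaconate against untreated was 2 when just the 8 libraries compared were fitted and 1 with no filter. For lipid + itaconate against lipid it was 1 with no filter and 1 without lipid + itaconate replicate C. Lipid against untreated changed 7 of 14, a share near the 47.5% of all genes. Slc39a3 and Slc39a11 rose, and Slc30a7, Slc30a9, Slc39a1, Slc39a7 and Slc39a10 fell.

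Slc39a10, a plasma membrane zinc importer that MTF-1 is known to repress, had the largest fall among them. Untreated cells had 18.8 ± 1.83 CPM (SD, n = 4) and lipid-treated cells 10.7 ± 1.67 CPM, without overlap, and the log2 change was -0.83 ± 0.09 (SE) with an adjusted p of 2.03e-06. With itaconate it went from 20.6 ± 0.985 to 12.5 ± 1.06 CPM on adding lipid, a log2 change of -0.72 ± 0.08 with an adjusted p of 7.61e-06. Slc39a11, a transporter of internal membranes, rose by 0.43 ± 0.09 (adjusted p 0.000832) with lipid alone and by 0.23 ± 0.09 (adjusted p 0.0443) with itaconate present. Slc39a3, another importer, rose by 0.31 ± 0.07 (adjusted p 0.00270) and by 0.41 ± 0.07 (adjusted p 0.000340) in the same comparisons.

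Lipid + itaconate against itaconate changed 8 of the 14, beside 47% of all genes. Slc30a3, Slc39a3 and Slc39a11 rose, and Slc30a4, Slc30a7, Slc30a9, Slc39a1 and Slc39a10 fell. The other falls were small, from -0.12 for Slc30a7 to -0.15 for Slc39a1, and Slc30a3, at 1.34 to 2.29 CPM by group, rose by 0.81 ± 0.22 with an adjusted p of 0.00623. The median log2 change of the 14 was -0.07 for lipid against untreated and -0.02 for lipid + itaconate against itaconate.

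**Figure D4:**
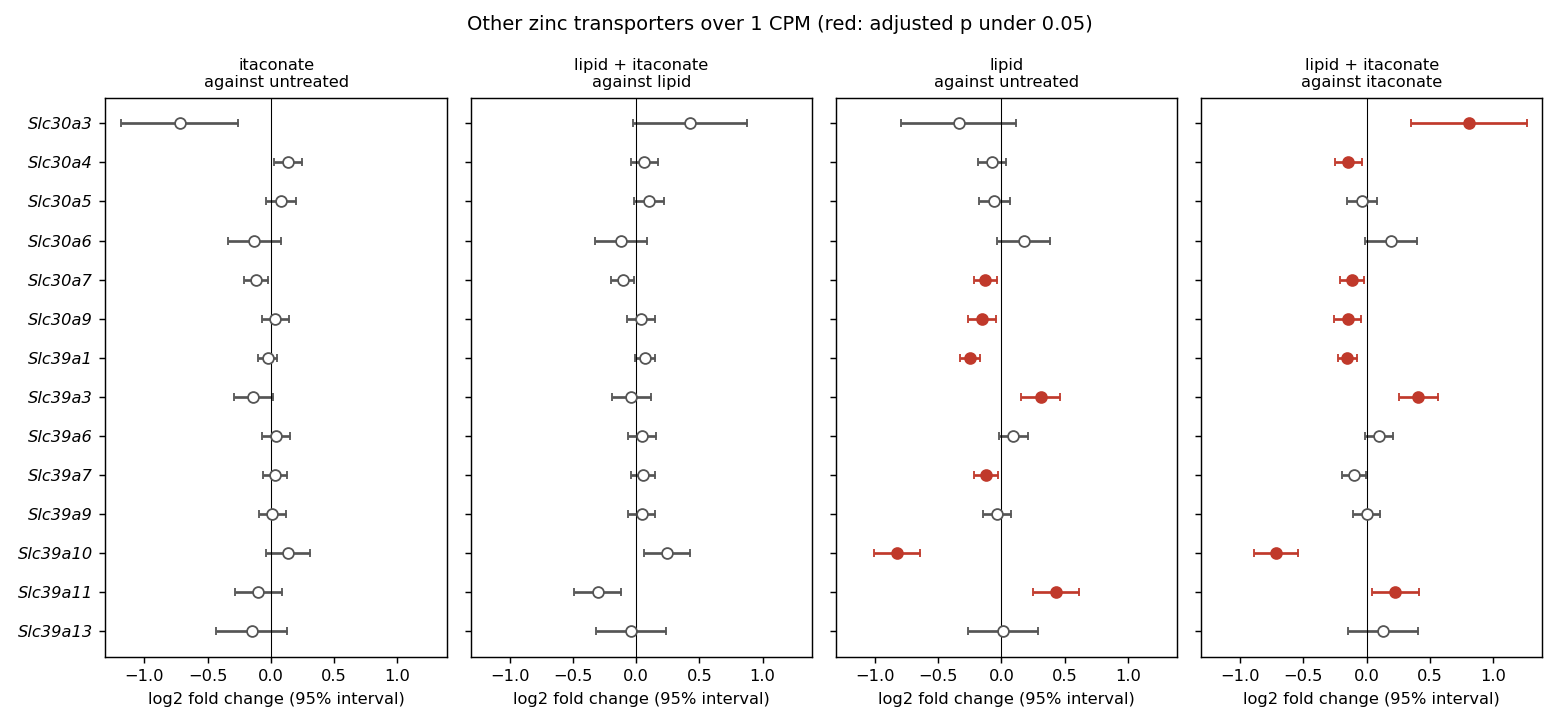
Log2 fold changes with 95% intervals (horizontal axes, the same in all panels) of the 14 other zinc transporter genes that averaged 1 CPM or more, filled red where the edgeR adjusted p was under 0.05. Red points appear in the lipid panels, 7 and 8 of 14, with Slc39a10 at -0.83 and -0.72 as the farthest fall.

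Genes described elsewhere as depending on MTF-1 were taken as a list of 5: Slc39a10, Gclc (the catalytic subunit of the enzyme that limits glutathione synthesis), Ndrg1 (a stress response gene), Csrp1 (a LIM domain protein) and Selenow (a selenoprotein). Lipid against untreated lowered 4 of the 5, all but Csrp1, which stood at 0.11 ± 0.13 with an adjusted p of 0.525. Lipid + itaconate against itaconate also lowered Slc39a10, Gclc, Ndrg1 and Selenow, beside background shares of lower genes of 23.7% and 23.5%. Of the members tied to MTF-1, Mt1, Mt2 and Mtf1 were not called in these comparisons. Slc30a1 was higher for lipid against untreated (0.33, adjusted p 0.00186) and was not called for lipid + itaconate against itaconate. MTF-1 is known to turn on Mt1, Mt2 and Slc30a1 and to repress Slc39a10. No direction of control was set here for Gclc, Ndrg1, Csrp1 or Selenow. The 5 genes were chosen with earlier results of these data known, so their counts beside the background shares are only a description. The part of MTF-1 in these changes was not tested. Gclc went from 907 ± 110 CPM in untreated cells to 569 ± 74.8 CPM with lipid, a log2 change of -0.67 ± 0.09 with an adjusted p of 2.6e-05, and Ndrg1 fell by 0.53 on the log2 scale with an adjusted p of 2.47e-05.

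In lipid-treated cells itaconate raised 2 of these 5, where 2.58% of all genes passed in either direction. With the list chosen knowing earlier results of these data, that count too is only a description. Gclc was 755 ± 39.0 CPM with lipid + itaconate, a log2 change of 0.41 ± 0.09 (adjusted p 0.0278), and Ndrg1 rose by 0.31 ± 0.07 (adjusted p 0.0329). Both genes also answer to other signals, such as oxidative stress and hypoxia. The count of 2 was 0 without the replicate block, 0 when just those 8 libraries were fitted, and 0 to 2 with 1 library left out, at 0 without lipid A or D or lipid + itaconate A or B and at 1 without lipid B or C or lipid + itaconate D. Itaconate against untreated called 0 of the 5 in edgeR, DESeq2 and limma, with 1 at an unadjusted p under 0.05, but edgeR called 2 when just the 8 libraries compared were fitted and 1 with no filter on low counts. The main edgeR model called 4.91% of all tested genes there, so 0 of 5 says little about the list. In the main model the interaction called none, with 0 at an unadjusted p under 0.05.

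Copper is also bound by metallothioneins, and of 13 copper handling genes 12 passed the filter, all but Mt3. Itaconate changed none in either comparison by edgeR, DESeq2 or limma, with 1 at an unadjusted p under 0.05 in each. Beside the 4.91% and 2.58% of all tested genes called by edgeR, 0 of 12 says little about the list. Fitting just the 8 libraries compared called 2 for itaconate against untreated, and leaving out lipid + itaconate replicate C called 1 for lipid + itaconate against lipid. Lipid against untreated raised 5, the copper pumps Atp7a and Atp7b and the chaperones Atox1, Ccs and Sco2, and lowered 2, Sod1 and Cp. Cp encodes ceruloplasmin, the copper protein that the liver secretes, and its level was 2281 ± 198 CPM in untreated cells and 1239 ± 241 CPM with lipid, a log2 change of -0.89 ± 0.10 with an adjusted p of 7.13e-06. Atp7b, the pump that loads copper into ceruloplasmin, rose by 0.35 ± 0.06 with an adjusted p of 0.000258. Lipid + itaconate against itaconate raised Atp7b and Atox1 and lowered Sod1 and Cp. These counts of 7 and 4 of 12 stand beside 47.5% and 47% of all genes.

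The genes most like the metallothioneins were sought over the 16 libraries among 9635 genes that averaged 5 CPM or more, by Pearson correlation with the summed Mt1 and Mt2 level (log2 CPM, letter means removed). The 5 closest were Apoc4 (an apolipoprotein, r = 0.958), Eif4a3 (an RNA helicase of the exon junction complex, r = 0.943), Adh5 (an alcohol dehydrogenase, r = 0.931), Wdr5 (a chromatin scaffold, r = 0.926) and Arl6ip5 (r = 0.919). Without lipid + itaconate C and lipid C, the 2 libraries farthest from the median, the values were 0.934, 0.898, 0.897, 0.887 and 0.849. The letter means were still those of all 16 libraries, so these values are not free of the 2 libraries left out. None of the 5 was called in any comparison. Among the members the same correlation was 0.645 for Slc39a14, 0.469 for Slc30a1, 0.457 for Mtf1, 0.101 for Slc30a10, -0.09 for Slc39a4 and -0.55 for Slc39a8. All these values share the same libraries and depths and are given as a description, without a test.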

How the data were processed

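The study measured mRNA in 16 libraries of mouse primary hepatocytes. The deposited values are expected counts per gene, which the authors made with bcl2fastq 2.20, cutadapt 1.18, STAR 2.7.0f (mm10), Picard 2.18.26 and RSEM 1.3.1, per the submitters' processing notes. Of these values 5.41% were not whole (tolerance 1e-06) and were rounded. Groups and replicate letters came from the sample titles. The model was edgeR 4.0.16 (R 4.3.3) with TMM scaling, a mean of at least 1 CPM, and terms for treatment and letter. CPM were taken over the TMM-scaled library size. The letter was used to pair the samples, whatever it marks. All 24 correlations of same-letter deviations from group means were over 0.1 (0.144 to 0.469, median 0.263). Of 72 other-letter correlations 6 were over 0.1, with a maximum of 0.178 and a median of -0.11. Removing group means pushes other-letter values below 0 when same-letter values are above it, so that median is no separate evidence. No 2 libraries of a group agreed within sampling noise (chi-square per gene at least 10.0). The largest values, 128, 147 and 106, were those of lipid + itaconate replicate B with A, C and D, while C with D gave 14.5. Intervals of 95% used the moderated degrees of freedom. Gene IDs matched GENCODE on GRCm38 for 55450 of 55450, and promoters came from RefSeq. The members and lists were chosen with earlier results of these data known. Named genes are the members, called genes of the lists, the 5 genes most like Mt1 and Mt2, and cell type markers. Alternatives were DESeq2 1.42.0, limma 3.58.1, other scaling, filters and samples. Scripts were tested on simulated data.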

Additional observations from a re-analysis of the deposited data

How the results depend on the processing

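Alternatives moved the number of members called as follows. Without the replicate block, lipid against untreated called 3 of 8 instead of 5, losing Slc39a4 and Slc39a14; it changed no other count of members. With no filter on low counts 1 member was called for itaconate against untreated and 1 for the interaction, and when just the 8 libraries compared were fitted 1 was called for itaconate against untreated, Slc30a1 each time; the cause was not tested. With 1 library left out, lipid against untreated called 4 to 5 and lipid + itaconate against itaconate 2 to 4. With no filter Mt2 was also called for lipid + itaconate against itaconate, at a log2 change of -0.20 and an adjusted p of 0.000490.

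No called change turned its direction. Of 656 values under alternatives 43 had the other sign, all of them for changes that were not called. For Mtf1 the interaction was -0.00213 with filterByExpr and -0.00105 with no filter, and for Slc39a4 itaconate against untreated was -0.00173 with just its 8 libraries and -0.00265 with limma. With 1 library left out, the log2 changes that crossed 0 ran as follows. For itaconate against untreated Slc39a4 ran from -0.0456 to 0.0378. For lipid + itaconate against lipid Mt1 ran from -0.10 to 0.16, Mt2 from -0.18 to 0.12 and Slc39a14 from -0.12 to 0.00792. For lipid against untreated Mt1 ran from -0.106 to 0.0440, Mt2 from -0.165 to 0.0240 and Mtf1 from -0.0294 to 0.0694. For lipid + itaconate against itaconate Mt1 ran from -0.183 to 0.0767, Mtf1 from -0.0251 to 0.0548 and Slc30a1 from -0.0495 to 0.115. For the interaction Mt1 ran from -0.168 to 0.0975, Mt2 from -0.292 to 0.0108 and Mtf1 from -0.0585 to 0.0468.

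Over all genes the calls were 573 for itaconate against untreated and 23 to 1859 under alternatives (23 without the replicate block), 301 for lipid + itaconate against lipid and 9 to 889 (9 without the block, 889 without lipid + itaconate C), 5546 for lipid against untreated and 4149 to 5742, 5483 for lipid + itaconate against itaconate and 3990 to 5649, and 1 for the interaction and 0 to 231. Without the block the other zinc transporters called fell from 8 to 4 for lipid + itaconate against itaconate, and the copper genes from 7 to 4 and from 4 to 2 in the lipid comparisons. The other zinc transporters called for lipid against untreated were 4 with no filter. At 91 counts, Slc30a10 was the member that depth limits most.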
